A study of Mus musculus with 23 samples.

Results

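Cholesterol synthesis was followed in the colon of mice through 7 genes: Hmgcs1, Idi1, Fdps, Sqle and Lss, which encode enzymes of the sterol route, and Srebf2 and Insig1, which encode proteins that control it. A probe set (a group of array probes for a transcript) was taken where the platform annotation gave it the symbol of 1 of these genes and no other. Of 45101 probe sets, 16 did so, and 14 of them passed a filter on low signal. The 7 genes stand among 12464 genes tested.

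The animals were C57BL/6J mice aged 12 to 14 weeks, all of the same inbred strain. Mice given 3% dextran sulfate sodium (DSS) in the drinking water gave colon after 2, 4 or 6 days, with 6 mice at each time, and 5 untreated mice gave colon at day 0. DSS is a sulfated polysaccharide that injures the epithelium of the colon and is widely used to model acute colitis. Total RNA of each mouse was hybridized to its own array, giving 23 arrays, and separate cohorts were taken at each time. Each value below is the signal intensity that the authors' processing gave the probe set.

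Cells make cholesterol from acetyl-CoA through mevalonate, isoprenoid diphosphates, squalene and lanosterol. When sterol in the endoplasmic reticulum is low, the transcription factor SREBP-2, the product of Srebf2, is released from the membrane by proteolysis and activates genes of nearly every enzyme of the route. INSIG1 holds the SREBP escort protein SCAP in the endoplasmic reticulum when sterol is plentiful, and its own gene is an SREBP target, so its transcript is often read as a gauge of SREBP activity. In the colon the epithelium renews constantly and uses sterol for new membrane.

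The promoters are shown as a description of the sequences. The enzymes varied together from mouse to mouse, as described further on, and the part of the promoters in this was not tested. RefSeq sequences (build GRCm38.p6) before the annotated gene start are given for 5 of the 7 genes, all on the plus strand, and those of Fdps and Sqle are not shown. They are the 250 bases at chr13:119690101-119690350 (Hmgcs1), chr13:8885356-8885605 (Idi1), chr15:82147019-82147268 (Srebf2) and chr5:28071162-28071411 (Insig1), and 210 bases at chr10:76531355-76531564 (Lss). Capitals mark matches on either strand to TCACNCCAC (a form of the sterol regulatory element, which SREBPs bind), CCAAT (the NF-Y box), GGGCGG (the GC box, bound by Sp1) or CACGTG (an E-box). None of the matches overlapped.
Hmgcs1: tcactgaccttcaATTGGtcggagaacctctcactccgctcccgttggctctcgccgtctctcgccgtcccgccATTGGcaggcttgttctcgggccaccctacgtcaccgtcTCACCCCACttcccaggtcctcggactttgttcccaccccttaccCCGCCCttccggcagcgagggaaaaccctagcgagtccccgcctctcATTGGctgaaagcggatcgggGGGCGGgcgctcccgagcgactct
Idi1: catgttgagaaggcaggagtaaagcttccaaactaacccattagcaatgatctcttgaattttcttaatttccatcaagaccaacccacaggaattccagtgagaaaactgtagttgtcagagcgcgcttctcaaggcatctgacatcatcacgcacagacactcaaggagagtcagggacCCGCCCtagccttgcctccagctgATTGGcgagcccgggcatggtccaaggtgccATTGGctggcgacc
Lss: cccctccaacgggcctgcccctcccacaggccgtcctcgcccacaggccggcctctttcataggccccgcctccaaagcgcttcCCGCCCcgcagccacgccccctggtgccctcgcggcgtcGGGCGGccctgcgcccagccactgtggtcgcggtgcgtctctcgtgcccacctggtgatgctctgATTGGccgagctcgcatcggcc
Srebf2: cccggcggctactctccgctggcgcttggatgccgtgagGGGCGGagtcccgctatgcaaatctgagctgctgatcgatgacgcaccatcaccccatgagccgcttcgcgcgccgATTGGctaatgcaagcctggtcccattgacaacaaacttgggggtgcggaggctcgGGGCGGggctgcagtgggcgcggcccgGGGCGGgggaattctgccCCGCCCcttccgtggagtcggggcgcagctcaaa
Insig1: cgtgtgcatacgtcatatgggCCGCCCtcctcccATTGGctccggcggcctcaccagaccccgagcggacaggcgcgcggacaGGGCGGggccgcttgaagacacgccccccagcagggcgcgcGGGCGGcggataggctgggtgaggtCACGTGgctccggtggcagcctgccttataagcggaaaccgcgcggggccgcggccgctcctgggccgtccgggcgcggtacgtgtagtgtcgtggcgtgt
The Hmgcs1 promoter held 1 match to the sterol element, which starts 137 bases before the gene start, beside 3 CCAAT boxes and 2 GC boxes. Idi1 held 2 CCAAT boxes and 1 GC box, Lss 1 and 2, Srebf2 1 and 4, and Insig1 1 and 3 with 1 E-box. All 5 therefore held a CCAAT box and a GC box within these windows. Among them is Srebf2, which followed the enzymes less closely, with a median r of 0.33 with the other 6 genes. Among 32851 mouse promoter windows of 250 bases, 33.8% held a CCAAT box, 32.7% a GC box, 6.02% the E-box and 1.05% the sterol element. Other spellings of the sterol element were not searched. A match describes the letters and is not a measured binding site.

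Against untreated colon, none of the 7 genes passed the test at day 2, 4 or 6 of DSS (limma, adjusted p of 0.05 or less after Benjamini-Hochberg adjustment over all genes). Over all genes, 0.0802% passed at day 2, 16.4% at day 4 and 32.5% at day 6. The median change of the 7 on the log2 scale was 0.13 at day 2, -0.19 at day 4 and -0.24 at day 6, beside medians over all genes tested of 0.01, 0.06 and 0.02. Among the 7 genes the change ran between -0.24 (Srebf2) and 0.43 (Lss) at day 2, between -0.33 (Srebf2) and 0.06 (Hmgcs1) at day 4, and between -0.38 (Srebf2) and 0.06 (Lss) at day 6. An unadjusted p under 0.05 was found for 1 of the 7 at day 2 (Lss), 2 at day 4 (Fdps and Srebf2) and 1 at day 6 (Srebf2), where 12.8%, 30.4% and 41.9% of all genes had one. In each of the 6 comparisons between days the arrays of the days overlapped for all 7 genes. The share of all genes without overlap was 2.29% for day 2, 10.1% for day 4 and 16.6% for day 6 against day 0, and 5.29%, 12.3% and 7.62% for day 4 against day 2, day 6 against day 2 and day 6 against day 4. Without day 0 mouse 3, the lowest of the untreated mice for Fdps and Sqle, these genes passed at day 6 against day 0 with changes of -0.39 (adjusted p = 0.0349) and -0.37 (adjusted p = 0.0448). Leaving out the lowest untreated mouse makes a fall larger by itself, and 3493 of 12464 genes passed in that fit. Of 23 arrays left out in turn, only this 1 gave these calls. The changes ran from -0.39 to -0.20 for Fdps (limma adjusted p up to 0.314) and from -0.37 to -0.12 for Sqle (up to 0.525). In colon tissue taken whole, fewer cells of a type and less RNA per cell cannot be told apart.

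**Figure D1:**
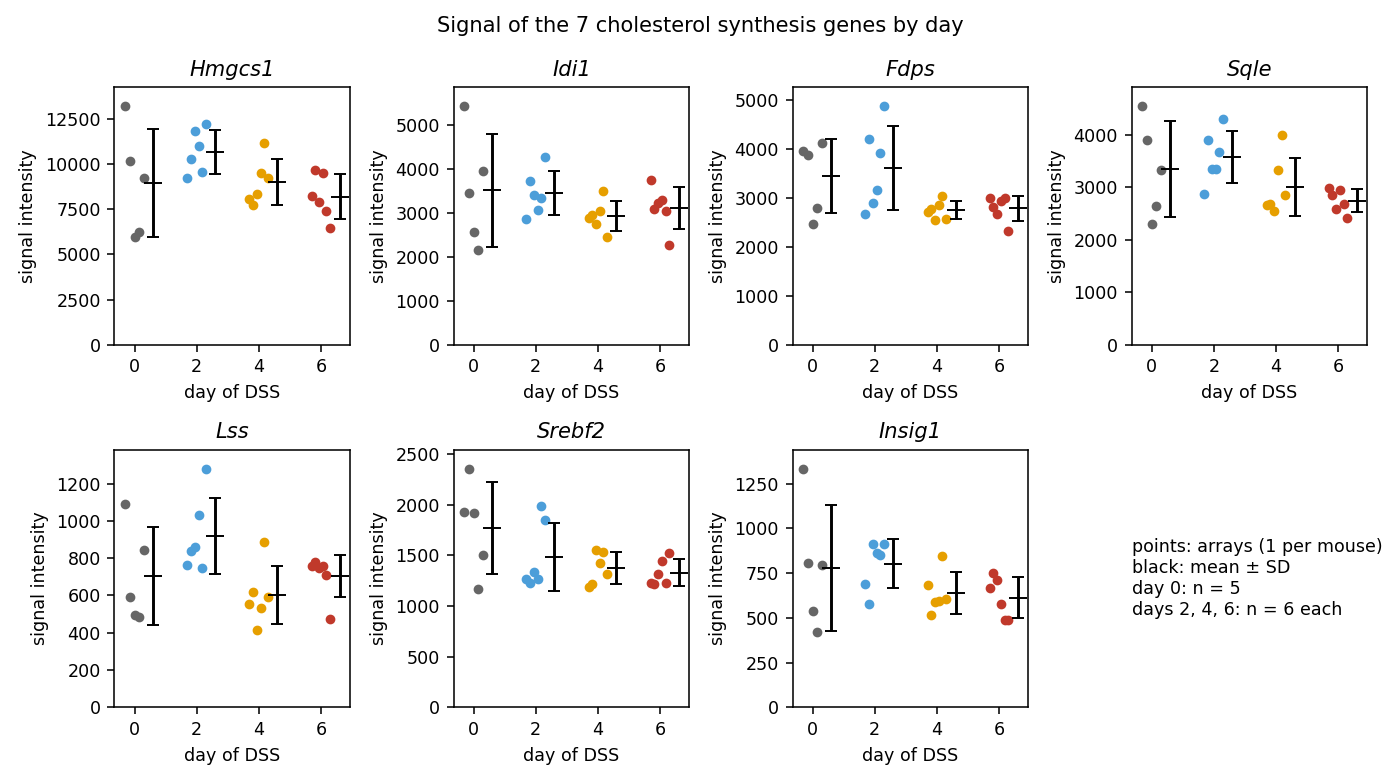
Signal intensity (linear scale, starting at 0) of the 7 genes against the day of DSS, with a point for each array and the mean ± SD in black (n = 5 at day 0 and 6 at each later day). The points of day 0 span most of the range of the later days for each gene, and the mean is highest at day 2 for Hmgcs1, Fdps, Sqle, Lss and Insig1.

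Hmgcs1 encodes the cytosolic HMG-CoA synthase, which makes the precursor of mevalonate, and had the brightest signal of the 7 genes, although signals of different probe sets are not comparable as amounts. At day 0 its signal was 13201, 10181, 5951, 6241 and 9213 in mice 1 to 5. It was 9225 to 12225 at day 2 (median 10647), 7761 to 11169 at day 4 (median 8780) and 6438 to 9673 at day 6 (median 8074). The 6 arrays of day 2 lay within the range of day 0, and day 0 held both the highest and the lowest array of all. At day 6 the mean was 8189 ± 1241 (SD, n = 6), against 10693 ± 1212 at day 2 (SD, n = 6). The log2 change for day 6 against day 2 was -0.39 ± 0.15 (SE, limma adjusted p = 0.0489), so the mean log level at day 6 corresponds to 0.763 times that of day 2. Against day 0 its change was -0.08 at day 6, with a 95% confidence interval of -0.40 to 0.24.

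Hmgcs1 had 5 probe sets, and the brightest, used above, has the suffix x, which marks probes that may also match other transcripts. The next brightest sets, 1433443_a_at, 1433444_at and 1433446_at, changed by -0.31, -0.41 and -0.47 for day 6 against day 2. Tested over all probe sets, their adjusted p-values were 0.236, 0.060 and 0.061, so none of them passed, and the brightest set itself had 0.052 in that test. The dimmest set, 1441536_at, which was above its array's median on 9 of 23 arrays, fell by 0.98 (adjusted p = 0.0219). All 5 sets thus gave the same direction.

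Idi1 encodes isopentenyl diphosphate isomerase, which makes dimethylallyl diphosphate. Its signal at day 0 was 5426, 3457, 2577, 2154 and 3951 in mice 1 to 5. Later it was 2863 to 4263 at day 2 (median 3379), 2451 to 3488 at day 4 (median 2912) and 2270 to 3759 at day 6 (median 3160). The arrays of the 3 later days lay within the range of day 0, and Idi1 passed in none of the 6 comparisons. Its largest change in size was -0.23 for day 4 against day 2 (95% confidence interval -0.56 to 0.10).

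Fdps encodes farnesyl diphosphate synthase, whose product feeds both sterols and prenylated proteins. Its signal at day 0 was 3956, 3887, 2474, 2795 and 4134 in mice 1 to 5. It was 2668 to 4879 at day 2 (median 3539), 2562 to 3039 at day 4 (median 2739) and 2336 to 3007 at day 6 (median 2876). The arrays of days 4 and 6 lay close together, whereas those of days 0 and 2 spread more widely and reached higher. With the probe set used for each gene, only Fdps of the 7 passed the test for any difference among the 4 days (limma moderated F, adjusted p = 0.0497). Of all genes, 43.6% passed it. Tested over all probe sets, this F test was also passed by sets not used for their gene. They were 1426744_at of Srebf2, 1426913_at of Lss and 1441536_at of Hmgcs1 (adjusted p = 0.00876, 0.0161 and 0.0385). Of all 21641 probe sets in that test, 8977 passed. Its change for day 6 against day 2 was -0.34 (adjusted p = 0.0511), which missed the threshold, and for day 4 against day 2 it was -0.36 (adjusted p = 0.0694).

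Sqle encodes squalene epoxidase, which takes the first oxygenation step of sterol synthesis. At day 0 its signal was 4543, 3908, 2298, 2646 and 3339 in mice 1 to 5. It was 2872 to 4294 at day 2 (median 3516), 2550 to 3994 at day 4 (median 2761) and 2422 to 2981 at day 6 (median 2764). All 6 arrays of day 6 lay below 5 of the 6 arrays of day 2. Sqle averaged 2745 ± 219 at day 6 and 3574 ± 496 at day 2 (SD, n = 6 each). The log2 change of day 6 against day 2 was -0.37 ± 0.14 (SE, limma adjusted p = 0.0395).

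Lss encodes lanosterol synthase, which closes the sterol rings. At day 0 its signal was 1093, 593, 496, 482 and 846 in mice 1 to 5. It was 748 to 1278 at day 2 (median 849), 416 to 886 at day 4 (median 574) and 475 to 779 at day 6 (median 753). At day 4, 5 of the 6 arrays lay below every array of day 2. Lss averaged 601 ± 156 at day 4 and 920 ± 203 at day 2 (SD, n = 6 each), a log2 change of -0.61 ± 0.19 (SE, limma adjusted p = 0.0354). With the probe set used for each gene, this was the one gene of the 7 to pass for day 4 against day 2. In that comparison 13.6% of all genes passed and 4.11% fell. Tested over all probe sets, 1441536_at of Hmgcs1 (-0.96, limma adjusted p = 0.0417) and 1426744_at of Srebf2 (-0.41, adjusted p = 0.0185) also fell. Of all 21641 probe sets, 1434 fell in that test.

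The probe sets of Lss did not give the same course. The brighter set, 1420013_s_at, used above, carries the suffix s, which marks probes shared by several transcripts. The dimmer set 1426913_at had a change of 0.07 for day 4 against day 2 (adjusted p over probe sets = 0.782). It fell by 0.53 for day 6 against day 4 (adjusted p = 0.0100) and by 0.47 for day 6 against day 2 (adjusted p = 0.0172), where the brighter set changed by 0.24 and -0.37. Which set follows the transcript was not tested.

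Srebf2 is the gene of SREBP-2 itself. Its signal at day 0 was 1924, 2354, 1915, 1166 and 1504 in mice 1 to 5. It was 1231 to 1984 at day 2 (median 1302), 1184 to 1558 at day 4 (median 1373) and 1222 to 1528 at day 6 (median 1274). Of the 5 untreated mice, 3 lay above all arrays of days 4 and 6, and mouse 4 lay below them. For day 6 against day 0 the log2 change was -0.38 (95% confidence interval -0.68 to -0.07, adjusted p = 0.0525), which missed the threshold. Without day 0 mouse 4, the low untreated mouse, Srebf2 passed at day 6 (-0.52, adjusted p = 0.00630) and at day 4 (-0.47, adjusted p = 0.0236) against day 0. It also passed at day 6 with array medians set equal (-0.46, adjusted p = 0.0327) and without day 0 mouse 5, day 2 mouse 17, day 2 mouse 52 or day 6 mouse 29 (adjusted p = 0.0463, 0.0392, 0.0473 and 0.0415). Of 23 arrays left out in turn, only 5 gave a call at day 6 and 1 at day 4. The changes ran from -0.52 to -0.27 at day 6 (limma adjusted p up to 0.182) and from -0.47 to -0.22 at day 4 (up to 0.331). Leaving out the lowest untreated mouse makes a fall larger by itself. The probe sets of Srebf2 differed in their course. The second set, 1426744_at, changed by -0.25 for day 6 against day 0 (adjusted p over probe sets = 0.107). It fell by 0.44 for day 4 against day 0 (adjusted p = 0.00931) and by 0.41 for day 4 against day 2 (adjusted p = 0.0185), where the set used for the gene changed by -0.33 and -0.09 and did not pass.

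Insig1 had 1 probe set, and its signal at day 0 was 1331, 804, 536, 422 and 794 in mice 1 to 5. It was 577 to 914 at day 2 (median 857), 514 to 847 at day 4 (median 600) and 488 to 752 at day 6 (median 619). The arrays of all later days lay inside the range of day 0. Insig1 passed in no comparison, and its largest change in size was -0.38 for day 6 against day 2 (95% confidence interval -0.78 to 0.02, adjusted p = 0.147).

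Between treated days the differences ran mostly downward. For day 6 against day 2, 2 of the 7 genes fell (Hmgcs1 and Sqle), where 31.0% of all genes passed in either direction and 14.2% fell. All 7 changes in that comparison were negative, between -0.39 and -0.14, with a median of -0.37, and the median over all genes was 0.02. For day 4 against day 2 all 7 changes were negative as well, with a median of -0.25, and for day 6 against day 4 the median was -0.05. Over all genes these medians were 0.06 and -0.03. None of the 7 passed for day 6 against day 4, and none had an unadjusted p under 0.05, where 22.8% of all genes passed and 34.9% had such a p. These comparisons share arrays, so their directions are not independent of each other. The 7 genes are not independent either. Their 21 pairs had a median Pearson r of 0.74 over the arrays after the mean of each day was removed. A shared direction of the 7 thus counts for less than 7 separate observations.

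**Figure D2:**
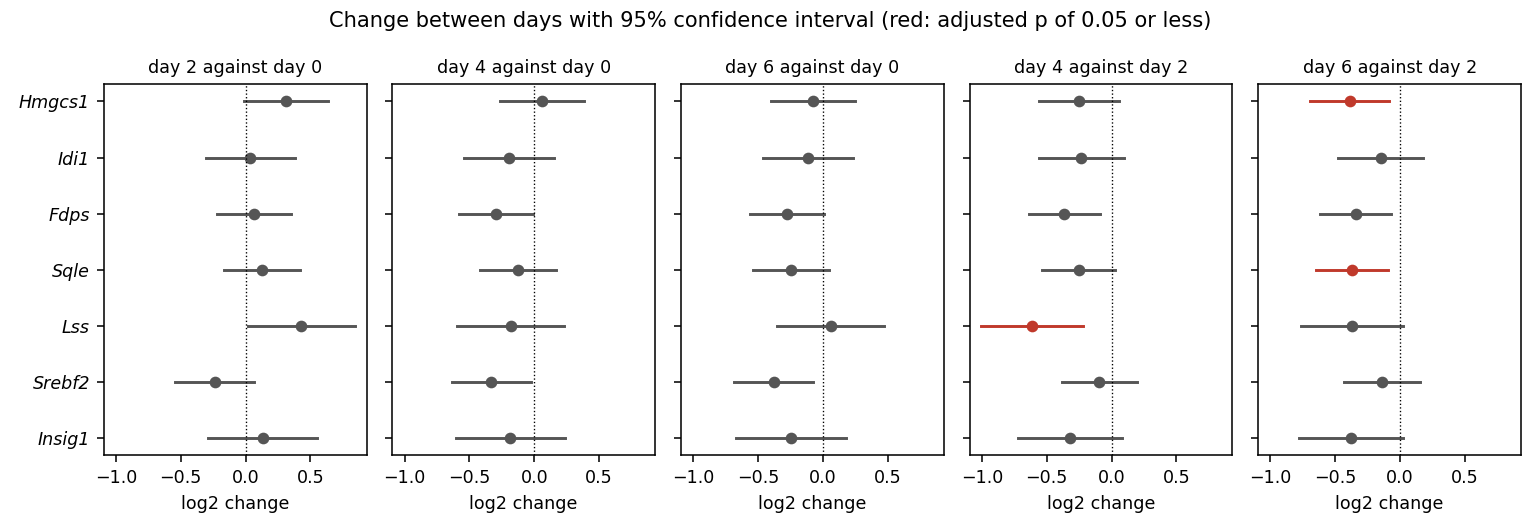
Log2 change of the 7 genes, with 95% confidence intervals from limma, in the 3 comparisons with untreated colon and in 2 comparisons with day 2. Red intervals are those of genes that passed the test: Lss for day 4 against day 2, and Hmgcs1 and Sqle for day 6 against day 2.

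Levels of marker genes moved alongside these differences. The 18 genes that mark intestinal epithelium in general were all measured, with mean log2 levels between 12.75 and 13.30 on the 23 arrays. Of them, 10 were lower and none higher for day 6 against day 2, and 7 were lower for day 4 against day 2. Their mean log2 level was 12.75 to 13.18 at day 6 and 12.77 to 13.18 at day 4, against 13.15 to 13.30 at day 2. With this level as a covariate the changes were -0.51 for Lss, -0.30 for Hmgcs1 and -0.27 for Sqle, and the adjusted p-values were 0.351, 0.254 and 0.253. Of all 12464 genes, only 1 passed in that fit for day 4 against day 2, and 2240 for day 6 against day 2. Without the covariate 1690 and 3863 passed. The level differed between the days, so its part in these calls cannot be told apart from the day. Of 11 macrophage and monocyte markers, 10 were higher at day 6 than at day 2. Their mean log2 level was 9.82 to 10.72 at day 6 and 8.91 to 9.23 at day 2. Of 18 cell cycle genes, 14 were higher and none lower at day 6 than at day 2, with mean log2 levels of 10.30 to 10.51 at day 6 and 9.43 to 10.16 at day 2. Of 14 clock genes, 8 were lower and 2 higher at day 6 than at day 2, with changes between -2.22 and 3.10. Their mean log2 level, which averages these opposite moves, was 8.78 to 9.31 at day 6 and 9.41 to 9.57 at day 2. For day 4 against day 2, 7 of 10 markers of enteric neurons and glia were higher, with levels of 8.23 to 8.77 at day 4 and 7.81 to 8.26 at day 2. The part of these 4 lists in the calls was not tested. Of all 12464 genes, 2092 were higher and 1771 lower for day 6 against day 2. For day 4 against day 2, 1178 were higher and 512 lower.

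RNA of neighbouring tissue and technical levels differed between arrays too. Day 2 mouse 6 and day 6 mouse 1 had high levels of pancreatic genes (mean log2 levels of 14.74 and 12.71), and day 2 mouse 8 and day 4 mouse 8 had low levels of squamous epithelial genes (6.29 and 6.20). Without these 4 arrays the changes were -0.59 for Lss (day 4 against day 2), -0.40 for Hmgcs1 and -0.38 for Sqle (day 6 against day 2), and the adjusted p-values were 0.104, 0.123 and 0.0966. The sizes were thus close to those with all arrays, and none of the 3 passed. Foreign transcripts spiked in as controls of hybridization had median log2 levels of 11.40, 11.38, 11.06 and 10.92 at days 0, 2, 4 and 6. With their level as a covariate the changes were -0.69 for Lss, -0.37 for Hmgcs1 and -0.58 for Sqle, and the adjusted p-values were 0.176, 0.408 and 0.106. Of all genes, 53 passed in that fit for day 4 against day 2 and 1279 for day 6 against day 2, beside 1690 and 3863 without the covariate. The control level was 11.15 to 11.46 at day 2, 10.83 to 11.15 at day 4 and 10.68 to 11.14 at day 6. This level and the day therefore cannot be told apart. The log2 ratio of 3' to 5' actin probe sets, a measure of RNA quality, had medians of 0.43, 0.44, 0.61 and 0.50. The same ratio for Gapdh had medians of -0.36, -0.34, -0.21 and -0.23. It was -0.38 to -0.28 at day 2 and -0.27 to -0.18 at day 4, so these days did not overlap. RNA quality by this ratio and the day therefore cannot be told apart for day 4 against day 2. Its part in the calls was not tested.

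The calls were also lost when certain single arrays were left out, although the changes kept their direction. With 1 array left out, the change of Lss for day 4 against day 2 lay between -0.73 and -0.51. For day 6 against day 2, that of Hmgcs1 lay between -0.44 and -0.32 and that of Sqle between -0.43 and -0.32. The Lss call was lost, with adjusted p-values of 0.0553 to 0.103, without day 2 mouse 7, 8 or 52 or without day 4 mouse 1, 3, 4 or 6. The Sqle call was lost, with adjusted p-values of 0.0655 to 0.0932, without day 2 mouse 6, 17 or 52 or without day 6 mouse 4, 21 or 29. The Hmgcs1 call was lost without any 1 of 16 arrays, with an adjusted p of up to 0.114 (without day 6 mouse 29). It was kept without day 0 mouse 1, 3 or 4, day 2 mouse 1, day 4 mouse 7, or day 6 mouse 3 or 7. The Fdps call among the 4 days was lost without any 1 of 17 arrays, with an adjusted p of up to 0.0931 (without day 2 mouse 6). Fdps, on the other hand, passed for day 6 against day 2 without any 1 of 6 arrays, with the lowest adjusted p of 0.0172 without day 2 mouse 1, and for day 4 against day 2 without that same array (adjusted p = 0.0334).

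Mice of the same day differed widely in the 7 genes. Within a day the SD of the log2 level was between 0.25 (Fdps) and 0.36 (Insig1), between the 63.1st and the 85.1st percentile over all genes tested, whose median SD was 0.21. At day 0 the highest mouse exceeded the lowest by 1.67 times for Fdps and by 3.16 times for Insig1, and the other 5 genes lay between these. Averaged over the 5 enzymes, the centred log2 level was 0.57, 0.14, -0.43, -0.40 and 0.23 in untreated mice 1 to 5. Mouse 1 was the highest untreated mouse for 5 of the 7 genes, mouse 4 was among the 2 lowest for all 7, and mouse 3 for 6.

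The mean log2 level of the 5 enzymes had an SD of 0.43 at day 0, 0.21 at day 2, 0.19 at day 4 and 0.18 at day 6. Untreated mice 3 and 4, with low enzyme levels, also had low mean levels of 18 cell cycle genes (9.76 and 9.75, against 10.32 to 10.62 in the other untreated mice). Their mean levels of 14 clock genes were the highest of day 0 (9.29 and 9.46, against 8.94 to 9.06). These clock genes move in opposite directions, with changes between -2.22 and 3.10 for day 6 against day 2. Their mean is therefore not a reading of the state of the clock. Across days the enzyme and cell cycle levels did not go together in this way. The mean enzyme level was -0.11 at day 6, when cell cycle levels were 10.30 to 10.51. It was 0.22 at day 2, when cell cycle levels were 9.43 to 10.16. Mean levels of the clock genes at day 2, 9.41 to 9.57, were at or near the highest of day 0. The hour at which the colon was taken is not given in the sources used here, and the part of these levels in the spread of the sterol enzymes was not tested.

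**Figure D3:**
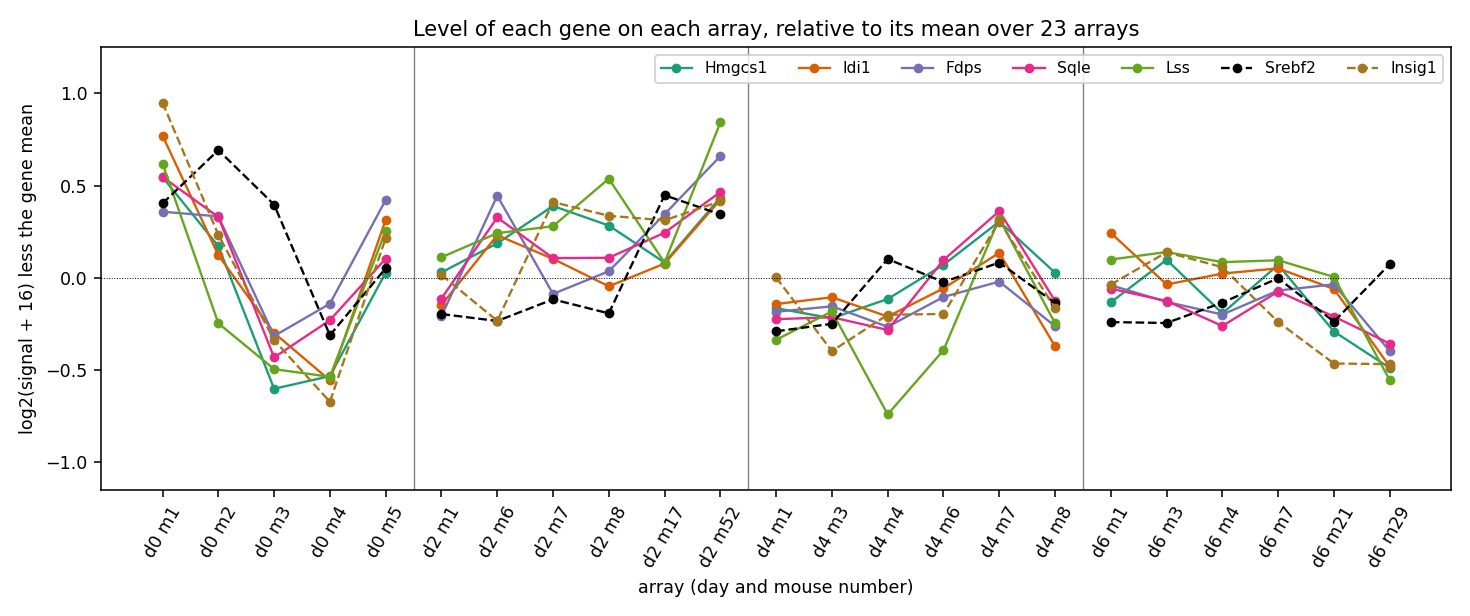
Level of each of the 7 genes on each of the 23 arrays, as log2(signal + 16) less the mean of that gene over all arrays, with arrays grouped by day (d) and named by mouse number (m). The 5 enzymes (solid lines) move together from array to array, most widely between the mice of day 0, where mouse 1 is high and mice 3 and 4 are low, while Srebf2 (black, dashed) departs from them on several arrays.

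Enzymes of the route went up and down together from mouse to mouse. After the mean of each day was removed, Pearson's r over the 23 arrays for the 10 pairs of enzymes was 0.62 to 0.87, with a median of 0.81. The closest pair was Hmgcs1 with Sqle (0.87), and the loosest was Hmgcs1 with Fdps (0.62). Insig1 had r of 0.45 (Fdps) to 0.85 (Hmgcs1) with the enzymes. Srebf2, whose transcript is only the first step in making active SREBP-2, followed less closely, with r of 0.07 (Lss) to 0.41 (Sqle) and a median of 0.33 with the other 6 genes. These correlations describe arrays that share 1 platform and scaling, and the wide spread of day 0 weighs heavily in them.

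The genes most like the enzymes were sought among the 12457 other genes by Pearson's r with the mean standardized level of the 5 enzymes over the 23 arrays. The 10 most alike were Msmo1 (r = 0.93), Fdft1 (0.87), Cyp51 (0.86), Aacs (0.83), Mvd (0.78), Nsdhl (0.75), Ubxn8 (0.69), Erg28 (0.69), Sc5d (0.69) and Mvk (0.68). Of these, 7 are other enzymes of the sterol route: Mvk and Mvd act on mevalonate, Fdft1 makes squalene, and Cyp51, Msmo1, Nsdhl and Sc5d act after lanosterol. Aacs encodes acetoacetyl-CoA synthetase. Dhcr7, of the last reduction to cholesterol, ranked 13th, so that 8 of the 14 other measured enzymes of the route were among the 100 most alike. The median r over all genes was -0.05, and Insig1 and Srebf2 had r of 0.82 and 0.35.

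Not every enzyme of the route followed. Lbr and Tm7sf2, which both encode sterol C14 reductases, had r of 0.06 and 0.07, and Pmvk and Acat1 had 0.16 and 0.21. With the mean of each day removed, r was 0.50 for Lbr, 0.66 for Pmvk and 0.72 for Hsd17b7, whose r over all arrays was 0.39, while it was -0.29 for Tm7sf2 and -0.04 for Acat1. Lbr, Pmvk and Hsd17b7 thus went with the enzymes between mice of the same day more closely than across days.

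**Figure D4:**
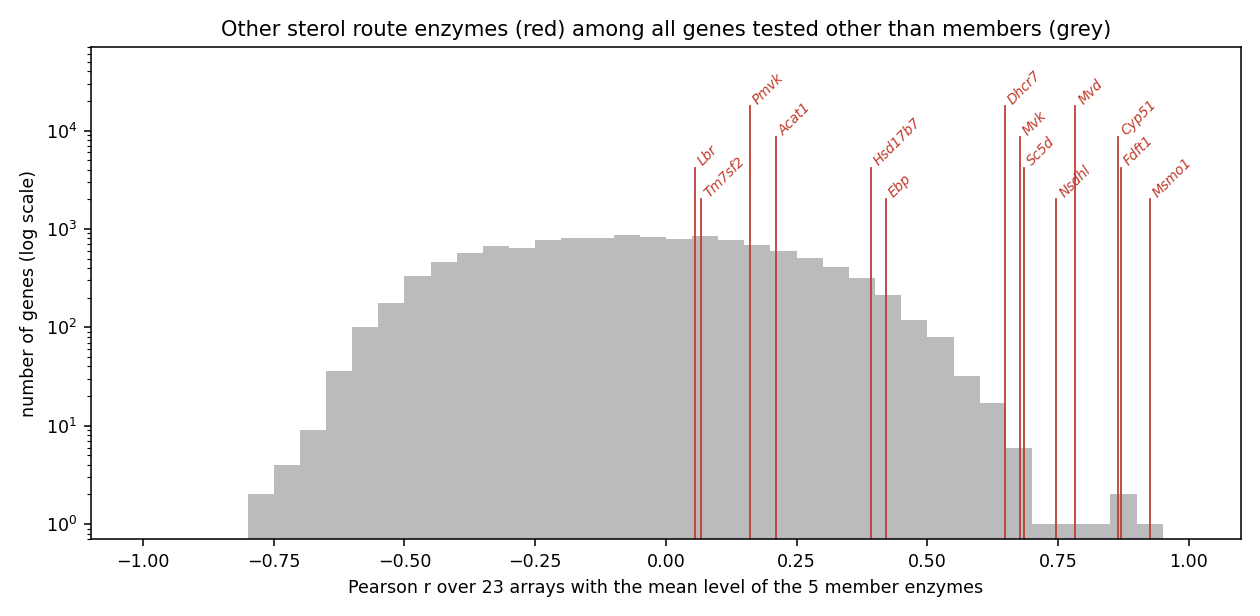
Number of genes (log scale) by their Pearson r over 23 arrays with the mean standardized level of Hmgcs1, Idi1, Fdps, Sqle and Lss, with the 7 genes themselves left out. Red lines mark the 14 other measured enzymes of the sterol route, 7 of which are among the 10 genes with the highest r, while Lbr, Tm7sf2, Pmvk and Acat1 lie between 0.06 and 0.21.

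Other enzymes of the route changed in both directions at day 6, as genes in general did. Of 20 names listed for other enzymes of the route, older synonyms included, 15 were on the platform annotation and 14 were tested, and the others were not analysed here. None of the 14 passed at day 2 or 4 against day 0 (limma), and 2 and 3 of them had an unadjusted p under 0.05, beside 12.8% and 30.4% of all genes. At day 6 against day 0, 4 of the 14 fell and 2 rose, beside 14.4% and 18.1% of all genes, and their median of -0.07 stands beside 0.02 over all genes. Those that fell were Dhcr7 (-0.47), Tm7sf2 (-0.42), Acat1 (-0.38), which encodes a mitochondrial thiolase and acts mainly in ketone metabolism, and Ebp (-0.27), which shifts a double bond of the sterol ring. Hsd17b7, a sterol ketoreductase, rose by 0.46 and Lbr by 0.22.

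For day 6 against day 2, 5 of the 14 fell and 2 rose, beside 14.2% and 16.8% of all genes. Dhcr7 fell by 0.49 (adjusted p = 0.00416), with a mean signal of 1665 ± 269 at day 6 and 2340 ± 385 at day 2 (SD, n = 6 each), and Tm7sf2, Acat1, Nsdhl and Ebp fell by 0.33, 0.30, 0.22 and 0.18. Pmvk, which encodes phosphomevalonate kinase, rose by 0.37 and Lbr by 0.24. Msmo1, Fdft1 and Cyp51, the closest followers of the 5 enzymes, passed in none of the 6 comparisons.

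**Figure D5:**
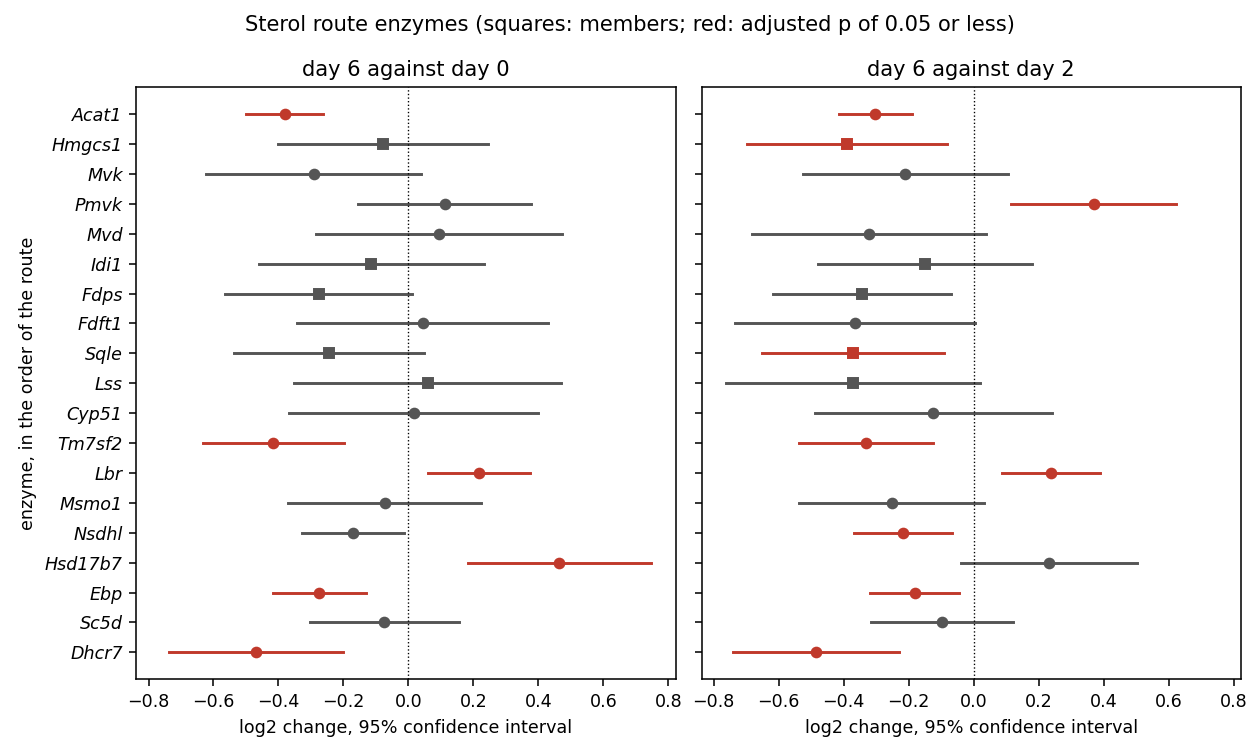
Log2 change with 95% confidence interval of 19 enzymes in the order of the sterol route, for day 6 against day 0 (left) and day 6 against day 2 (right), with the 5 enzymes described in detail as squares and genes that passed in red. Changes of both signs are seen along the route in both comparisons, and Dhcr7 is lower at day 6 in both.

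Genes around the route were counted from lists of sterol handling. Of 9 tested genes of sterol uptake and transport, 3 fell and 1 rose at day 6 against day 0, beside 14.4% and 18.1% of all genes. Stard4, an SREBP target that carries cholesterol between membranes, fell by 0.49 for day 6 against day 0 (adjusted p = 0.0135), by 0.55 for day 4 against day 2 (adjusted p = 0.0162) and by 0.69 for day 6 against day 2 (adjusted p = 0.000835). Its signal was 2167 to 3045 at day 4 (median 2635) and 3615 to 4274 at day 2 (median 3796), so these days did not overlap, which held for 5.29% of all genes. Npc1, which exports cholesterol from lysosomes, fell by 0.51 at day 4 and by 0.50 at day 6 against day 0. Its signal was already lower at day 2, at 283 to 398 (median 326) against 447 to 527 at day 0 (median 478). Those days did not overlap, which held for 2.29% of all genes, but Npc1 did not pass at day 2, where 0.0802% of all genes did. Osbp, a sterol and phospholipid exchanger, fell by 0.19 and Lrp1, a large endocytic receptor, rose by 0.59 at day 6 against day 0.

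Of 10 tested genes of sterol efflux, storage and the liver X receptors, which sense oxysterols, 5 rose and none fell at day 6 against day 0, where 18.1% of all genes rose and 14.4% fell. Cyp7b1, an oxysterol hydroxylase, rose by 1.65, Apoe by 0.87, Abca1 by 0.86, Ch25h, which makes 25-hydroxycholesterol, by 0.76, and Abcg1 by 0.70. Abca1 and Abcg1 export cholesterol from cells and are abundant in macrophages, and 10 of 11 macrophage markers rose in the same comparison. The mean log2 level of those markers was 9.82 to 10.72 at day 6 and 8.77 to 9.06 at day 0, and its part in these 5 genes was not tested. For day 6 against day 2, 5 of the 10 rose and 2 fell (Abcg5 by 0.69 and Cyp27a1 by 0.31), beside 16.8% and 14.2% of all genes.

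Of 11 tested genes that control sterol sensing, 1 passed at day 4 and 1 at day 6 against day 0, beside 16.4% and 32.5% of all genes. Mbtps2, a protease that releases SREBPs, rose by 0.28 at day 4 against day 0, and Insig2, the relative of Insig1, rose by 0.20 at day 6 against day 0. Of 8 genes on branches of the mevalonate route, Nus1, a subunit of the dolichol-making prenyltransferase, rose by 0.28 and Coq2, of coenzyme Q synthesis, fell by 0.17 at day 6 against day 0, so 2 of the 8 passed where 32.5% of all genes did.

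Fatty acid synthesis is controlled largely by the related factor SREBP-1. Of 17 tested genes, 5 fell and 4 rose at day 6 against day 0, and 14.4% and 18.1% of all genes did so. Acss2 (acetyl-CoA synthetase) fell by 0.89, Fads2 (a fatty acid desaturase) by 0.88, Mlxipl (the carbohydrate-responsive factor ChREBP) by 0.70 and Acly (ATP citrate lyase, which makes cytosolic acetyl-CoA) by 0.52. Me1 (malic enzyme) rose by 0.65 and Fads1 (a desaturase) by 0.48. The mean signal of Acss2 was 1674 ± 379 at day 6 and 3060 ± 214 at day 0 (SD, n = 6 and n = 5).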

How the data were processed

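Each array was a mouse colon on the Affymetrix Mouse Genome 430 2.0 design. The deposited values are signal intensity on a linear scale, made with MAS5 by the authors per the submitters' processing notes, which give no version. Every array had a trimmed mean (2% removed from either tail) of 500, so no further scaling was applied. A shift in the RNA content of the cells is invisible after such scaling, and the number of arrays limits the precision.

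Probe sets with at least 5 arrays above their own array's median were kept. The kept probe set with the highest mean and with 1 symbol stood for a gene. log2(signal + 16) was fitted with limma 3.58.1 in R 4.3.3 (lmFit, eBayes with trend, all 4 days in 1 fit), and p-values were adjusted by the Benjamini-Hochberg method over 12464 genes. A log2 change compares means of log levels and understates changes of dim genes. The fit was tested on simulated data.

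The 7 genes and all lists were chosen with earlier results of these data known. Named genes are the 7, up to 6 with the largest changes among those that passed from each list and comparison, and the 10 most like the enzymes. Alternatives changed the pseudocount, filter, normalization, probe set rule, spread estimate, arrays in the fit or covariates, used the mouse number as a block, or left out each array in turn.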

Additional observations from a re-analysis of the deposited data

Results flagged for a closer look

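Of 28 groups of arrays (7 genes at 4 days), 1 held an array far from the rest by Dixon's test. The Lss signal of day 6 mouse 29 was 475.487, below the other 5 arrays of day 6, which lay between 708 and 779. Chance alone gives such an array in about 1 in 20 groups. Mouse 29 was also the lowest of day 6 for Hmgcs1, Idi1, Fdps, Sqle and Insig1.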

How the results depend on the processing

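The changes of the 7 genes, other than for day 6 against day 4, gave 1365 values under 16 other settings and with each array left out. Of these, 1255 kept their direction and their side of the threshold, 33 reversed, 53 lost a call and 24 gained one. Most had no call to lose: only Lss (day 4 against day 2), Hmgcs1 and Sqle (day 6 against day 2) did. They were called in 10, 6 and 8 of the 16 settings, and leaving out 1 of 23 arrays ended their calls for 7, 16 and 6 arrays. None of the 7 genes passed for day 2 against day 0 or for day 6 against day 4 under any setting or with any array left out. For day 4 against day 0, 1 gene passed with the mean of the probe sets in place of none. For day 6 against day 0, 1 passed with median centring, the mean of the probe sets, mice 1 to 8 alone or the squamous covariate. For day 4 against day 2, 0 passed with the mean of the probe sets, the replicate block, mice 1 to 8 alone, the hybridization or pan-epithelial covariate, or without the 4 arrays of differing tissue, and 2 passed with the squamous covariate. Over all genes, 1690 passed in the main fit, 1510 with the mean of the probe sets, 801 with mice 1 to 8 and 1401 without the 4 arrays. With the block, the hybridization and the pan-epithelial covariate only 90, 53 and 1 of all genes passed, so 0 of the 7 there says little about these genes. For day 6 against day 2, 0 passed with no filter, quantile normalization, no mean-variance trend, the replicate block, mice 1 to 8 alone, the hybridization or pan-epithelial covariate, or without those 4 arrays, and 1 passed with each probe set tested. Over all genes, 3863 passed in the main fit, 1555 with the block, 2593 with mice 1 to 8, and 1279 and 2240 with the hybridization and pan-epithelial covariates. For any difference among the 4 days, 0 passed with a pseudocount of 1, no filter, no trend, the replicate block, mice 1 to 8 alone, the hybridization or pan-epithelial covariate, or without those 4 arrays, and 2 passed with median centring. Over all genes, 5437 passed this test in the main fit, 3284 with the block, and 2622 and 4031 with the hybridization and pan-epithelial covariates. Leaving out 1 array gave 0 to 1 genes for day 4 and 0 to 2 for day 6 against day 0, 0 to 2 for day 4 and 0 to 3 for day 6 against day 2, and 0 to 2 for any difference. The cause was not tested.

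The labels do not state that mouse numbers shared between days pair the arrays. Of 17 pairs with a shared number, 3 had deviations from the day means correlated above 0.1 (range -0.16 to 0.70). The median r was 0.046 for these pairs and 0.003 for the other pairs of arrays from different days. Such correlations cannot exclude a pairing by the mouse numbers. A replicate block on these numbers gave changes of -0.43 for Lss (day 4 against day 2), -0.09 for Hmgcs1 and -0.04 for Sqle (day 6 against day 2), with limma adjusted p of 0.255, 0.810 and 0.914. It reversed changes that had not passed: for day 2 against day 0 to -0.10 (Idi1), -0.086 (Fdps) and -0.14 (Sqle), for day 6 against day 0 to 0.066 (Hmgcs1) and 0.049 (Idi1), for day 4 against day 2 to 0.13 (Srebf2) and for day 6 against day 2 to 0.15 (Idi1) and 0.065 (Srebf2). Mice 1 to 8 alone reversed Idi1 (-0.036) and Fdps (-0.085) for day 2 against day 0, Hmgcs1 (0.039) for day 6 against day 0, Srebf2 (0.099) for day 4 against day 2, and Idi1 (0.035) and Srebf2 (0.030) for day 6 against day 2. The mean of the probe sets reversed Hmgcs1 (-0.037) at day 4 and Lss (-0.16) at day 6 against day 0, and median centring (-0.026) and the hybridization covariate (-0.067) reversed Lss at day 6. Leaving out 1 array reversed, for day 2 against day 0, Idi1 (-0.12 to 0.21), Fdps (-0.045 to 0.15) and Insig1 (-0.056 to 0.35), for day 4 against day 0, Hmgcs1 (-0.069 to 0.22) and Insig1 (-0.37 to 0.032), and for day 6 against day 0, Hmgcs1 (-0.21 to 0.078), Idi1 (-0.27 to 0.061) and Lss (-0.055 to 0.23). The probe sets used for the 7 genes lay above the median of their array on all 23 arrays.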
